A study of Bos taurus with 9 samples.

Results

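Dickkopf-1 (DKK1), a secreted Wnt antagonist, was described together with 4 other genes of Wnt signalling, DKK3, FZD4, SFRP2 and CTNNB1, in bovine nucleus pulposus cells under salt stress. The genes were taken by symbol, as every probe set that the platform annotation assigns to that symbol alone. This gave 8 of the 24016 probe sets outside the manufacturer's controls, for 5 of the 9155 genes with such a probe set: a pair each for DKK1, DKK3 and FZD4 and a single one for SFRP2 and for CTNNB1. Of these 8 probe sets, 6 passed the filter on low values, a mean intensity over the 9 arrays at or above the 25th percentile (17.8); the dimmer FZD4 probe set and the SFRP2 probe set did not. The genes were chosen with the differences between these groups known, so their values are described and no test is given for them.

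The cells came from the nucleus pulposus, the gelatinous core of the intervertebral disc, of caudal discs of young calves. They were cultured in DMEM with fetal bovine serum and hybridised to 1-colour Affymetrix bovine arrays, 3 per group. The groups were untreated control cells, cells given salt to 500 mOsm/kg for 5 h and cells given the same salt for 24 h. The replicates are labelled biological, with no animal or culture named for them, so p-values measure only the spread between these cultures. No time is given for the control cells, and both salt times are set against those 3 arrays, so time in culture and salt cannot be told apart. The comparisons ask how transcripts of disc cells differ after hyperosmotic stress of each length.

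Values are intensities on a linear scale, and array medians lay between 67.1 and 84.5. Differences were taken on log2(intensity + 16), which compresses the change of dim probe sets. Arrays with the same replicate number deviated together from their group means (correlations 0.565 to 0.896 over 9 pairs), and the 3 arrays numbered 3 stood furthest from the rest. List counts from a test with the replicate number as a block are therefore given beside the main ones, with the genes it adds against control. The SE (±) of a log2 difference is from the main fit throughout, also where an adjusted p with the block is given. Of 15 nucleus pulposus markers 8 had a probe set; aggrecan (ACAN, 497.4 to 4025.9) and CDH2 (1082.7 to 2497.7) lay above the median of tested probe sets, COL2A1 and KRT18 passed the filter only, and KRT8, KRT19, SHH and CHAD were below it. SOX9 and TBXT were not analysed here. Of 10 markers of annulus or tendon-type fibroblasts 8 had a probe set, and COL3A1 ranged from 8972.0 to 13894.6. In bulk samples, fewer cells of a type and less RNA per cell cannot be told apart.

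In canonical Wnt signalling, a Wnt ligand binds a Frizzled receptor and the co-receptor LRP5 or LRP6 at the cell surface. The complex that marks β-catenin for destruction is then held back, and β-catenin enters the nucleus and drives target genes with TCF and LEF factors. DKK1 blocks the pathway at the co-receptors, while secreted frizzled-related proteins such as SFRP2 bind the ligands. In the intervertebral disc, as in cartilage, Wnt signalling is known to act on cell proliferation and matrix turnover.

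DKK1 was higher in salt at both times, by the widest margin of the 5 genes. On its brighter probe set the 3 control arrays had intensities of 51.7, 34.8 and 49.9 (replicate numbers 1, 2 and 3). After 5 h in salt they were 586.2, 189.4 and 617.4, and after 24 h they were 312.7, 516.1 and 479.1. All 6 salt arrays lay above all 3 control arrays, and the array numbered 2 was the lowest at 5 h and the highest at 24 h. Group means were 45.5 ± 9.28 in control, 464.3 ± 239 at 5 h and 436 ± 108 at 24 h (SD, n = 3 each), so the mean intensity was 10.2 times that of control at 5 h and 9.59 times at 24 h.

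The log2 difference of DKK1 from control was 2.81 ± 0.42 at 5 h and 2.86 ± 0.42 at 24 h (SE from the limma fit). Within replicate numbers 1, 2 and 3 it was 3.15, 2.02 and 3.26 at 5 h and 2.28, 3.39 and 2.91 at 24 h. Between 5 h and 24 h the log2 difference was 0.048 ± 0.42, and its sign differed between replicate numbers: -0.87, 1.37 and -0.36. It was -0.11 with each array centred on its median. The 5 h and 24 h levels thus overlapped and had no settled order, and both lay above control.

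The dimmer DKK1 probe set was also higher in salt, starting from near the bottom of the scale. Its control intensities were 6.0, 0.0 and 7.8, its 5 h intensities 84.1, 19.0 and 116.4, and its 24 h intensities 50.4, 72.6 and 90.3. Again all 6 salt arrays were above all control arrays, and the 5 h array numbered 2 was the lowest of the salt arrays. The log2 difference was 1.93 ± 0.45 at 5 h and 2.07 ± 0.45 at 24 h. Because control lies near 0, the value depends on the constant added before the logarithm, and it was 3.0 and 3.23 with 4 in place of 16. Over the 9 arrays the correlation of both DKK1 probe sets was 0.98, a description of probes that share transcripts and arrays.

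**Figure D1:**
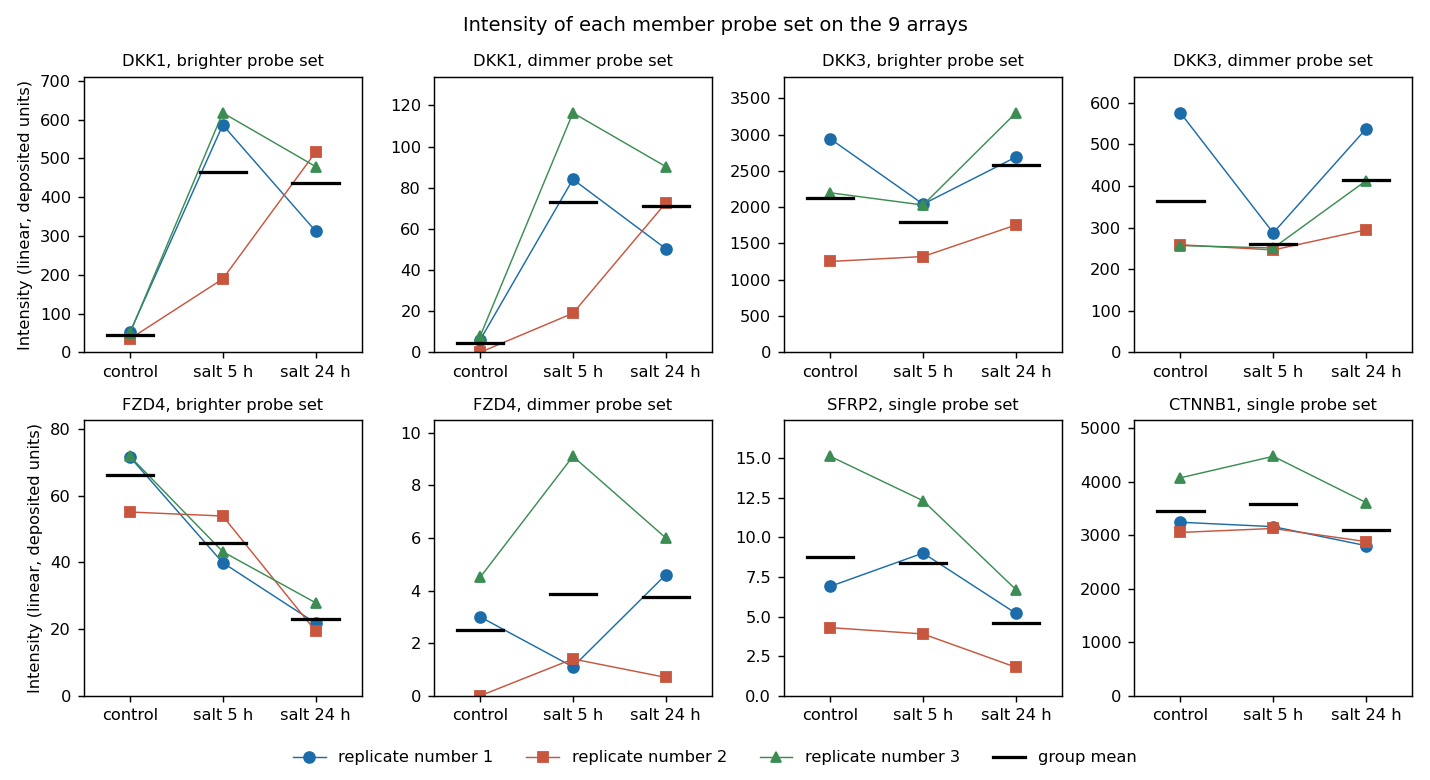
Linear intensity (y, from 0) of the 8 member probe sets in control, salt 5 h and salt 24 h cells (x); symbols and colours mark the replicate number, thin lines join arrays of 1 number, and black bars are group means of 3 arrays. Both DKK1 probe sets are higher on all 6 salt arrays than on any control array, and the brighter FZD4 probe set declines from 55.1 to 71.8 in control to 19.4 to 27.9 at 24 h.

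FZD4, a Frizzled receptor for Wnt ligands and norrin, was lower in salt, and more so at 24 h. Its brighter probe set had control intensities of 71.6, 55.1 and 71.8, 5 h intensities of 39.9, 53.9 and 43.2 and 24 h intensities of 21.8, 19.4 and 27.9. No array of one group reached into another, so the order was control, then 5 h, then 24 h, although control and 5 h arrays numbered 2 differed by only 0.025 on the log2 scale. The log2 difference from control was -0.41 ± 0.17 at 5 h and -1.07 ± 0.17 at 24 h, and the mean intensity at 24 h was 0.348 times that of control. The 24 h level lies close to the filter at 17.8, so the log2 difference is understated; it was -1.38 at 24 h with 4 added in place of 16. The dimmer FZD4 probe set ranged from 0.0 to 9.1 over the 9 arrays, its groups overlapped, and it carries no usable level. Averaged over both probe sets, the FZD4 log2 difference at 24 h was -0.49.

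DKK3, a divergent member of the Dickkopf family, differed from control by less than its arrays differed among themselves. Its brighter probe set stood at 2942.0, 1252.3 and 2198.2 in control, 2041.8, 1320.2 and 2029.7 at 5 h and 2690.2, 1754.5 and 3299.5 at 24 h. The 3 groups overlapped, and the array numbered 2 was the lowest in each. The log2 difference from control was -0.19 ± 0.34 at 5 h and 0.31 ± 0.34 at 24 h, beside an SD between control arrays of 0.62. From 5 h to 24 h, DKK3 was higher in all 3 replicate numbers, with log2 differences of 0.40, 0.41 and 0.70. The dimmer DKK3 probe set showed 0.87, 0.24 and 0.68 for the same step, and its 24 h arrays (294.8 to 537.6) lay above its 5 h arrays (246.3 to 287.4). Its correlation with the brighter probe set over the 9 arrays was 0.77.

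CTNNB1, which encodes β-catenin, had group means within the range of its control arrays at both salt times. Its intensities were 3244.2, 3053.6 and 4075.0 in control, 3161.8, 3127.7 and 4476.5 at 5 h and 2806.9, 2882.4 and 3612.3 at 24 h. The array numbered 3 was the highest in every group, and the groups overlapped. The log2 difference from control was 0.044 ± 0.18 at 5 h, which is -0.0013 without the arrays numbered 3, and -0.15 ± 0.18 at 24 h. Within replicate numbers CTNNB1 was lower at 24 h than in control by -0.21, -0.083 and -0.17 on the log2 scale. The arrays measure the transcript and not the β-catenin protein, on which the pathway acts.

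SFRP2, a secreted binder of Wnt ligands, was at the bottom of the intensity scale. Its single probe set ranged from 4.3 to 15.1 in control, from 3.9 to 12.3 at 5 h and from 1.8 to 6.7 at 24 h, below the filter on every array. The array numbered 3 was again the highest in each group, and the groups overlapped. No log2 difference is given for it.

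Of the 6 member probe sets that passed the filter, the groups did not overlap for 2 higher (both DKK1) and 1 lower (FZD4) at 5 h. Over all 18013 tested probe sets 4.04% were higher and 6.6% lower in this way at 5 h. The member counts were the same at 24 h, where the shares of all tested probe sets were 13.9% and 13.5%. From 5 h to 24 h, 1 member probe set was higher without overlap (the dimmer DKK3) and 1 lower (FZD4), beside 18.1% and 14.3% of all tested probe sets. Since the genes were chosen on these comparisons, nothing is read from these counts.

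The rest of the pathway was followed through 174 other Wnt genes in 10 lists by role, of which 92 had a single-gene probe set and 86 passed the filter. Each gene was represented by its brightest probe set, and tested with limma over all 18013 probe sets. At 5 h, 1 of the 86 fell, the β-catenin target MYC, and 0 rose (1.16%), while 0.489% of all probe sets were called, 0.239% higher and 0.25% lower. Before adjustment, p lay under 0.05 for 3 list genes that were higher and 3 that were lower, and over all probe sets it lay under 0.05 for 491 probe sets that were higher and 813 that were lower. With the replicate block 4 list genes rose and 4 fell, beside 2.45% and 3.41% of all probe sets (5.87% together). At 24 h, 5 of the 86 rose and 5 fell (11.6%), beside 8.7% of all probe sets, of which 783 rose and 784 fell (4.35% each); with arrays centred on their medians 504 rose and 828 fell. With the block 12 list genes rose and 14 fell, beside 18.4% and 17.5% of all probe sets (35.9% together). The median log2 difference of the 86 was -0.029 at 5 h and -0.00088 at 24 h, and that of all tested probe sets -0.03 and 0.024. The share of list genes called at 24 h was near the background, and they were called in both directions alike. Of 9 leukocyte markers 7 had a probe set; their summed intensity ran from 212.1 to 230.3 in control, 216.6 to 232.4 at 5 h and 406.8 to 442.3 at 24 h, and of 5 tested markers CD14 rose at 24 h (1.43, adjusted p = 0.0054). The other leukocyte markers were not called; PTPRC stood at 0.50, CSF1R at 0.10, CD3E at 0.056 and CD68 at 0.031 (adjusted p = 0.53, 0.83, 0.93 and 0.97), and CD79A and ITGAM were below the filter. Of 7 tested fibroblast markers COL12A1 and THY1 rose at 24 h (1.73 and 0.74, adjusted p = 0.0033 and 0.036), COL1A1, COL1A2 and COL3A1 stood at -0.32, -0.22 and -0.058, and PDGFRA and FBLN1 at 0.21 and 0.44. The fibroblast sum ran from 26080 to 35420 in control and from 26250 to 33630 at 24 h. The part of such cells in the Wnt values was not tested.

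**Figure D2:**
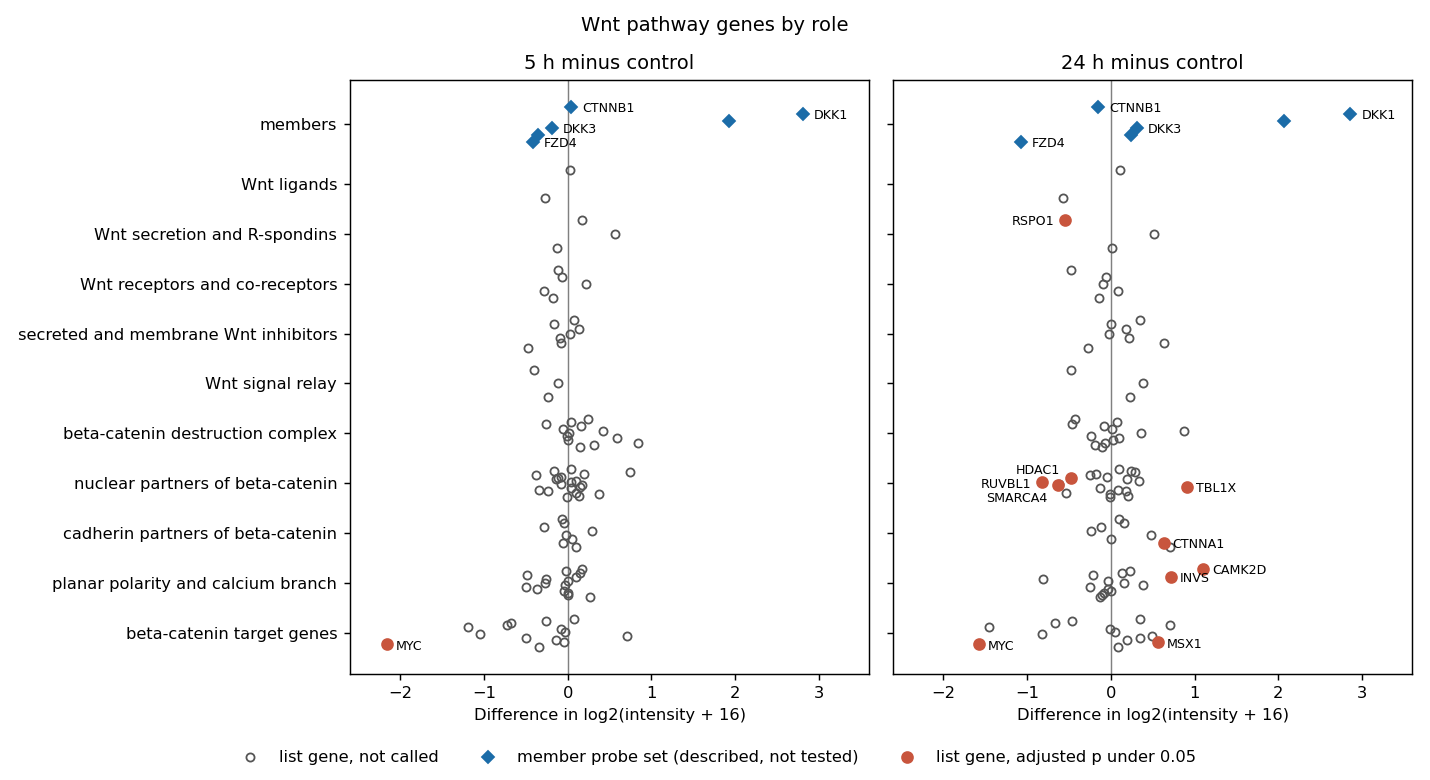
Difference in log2(intensity + 16) from control (x) of the 86 tested Wnt genes by role (y, a gene with several roles is drawn in each) at 5 h (left) and 24 h (right). Filled circles passed limma at an adjusted p under 0.05, open circles did not, and diamonds are the member probe sets that passed the filter, which were not tested; DKK1 lies at 2.81 and 2.86, to the right of all list genes.

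Ligands, secretion factors and receptors were sparsely covered. Of 19 Wnt ligands 3 had a probe set and 2 passed the filter; WNT2B stood at -0.57 ± 0.26 at 24 h (adjusted p = 0.22) and WNT11 at 0.11 ± 0.17 (adjusted p = 0.80), and WNT6 was between 0.0 and 2.4 on the 9 arrays. WLS, which carries Wnt proteins to the cell surface, stood at 0.016 ± 0.14 at 24 h (adjusted p = 0.98). RSPO3, a secreted enhancer of Wnt signalling, stood at 0.52 ± 0.36 (adjusted p = 0.45). Its relative RSPO1 fell by 0.55 ± 0.14 at 24 h (adjusted p = 0.047), from 17.3, 23.0 and 23.6 in control to 6.8, 9.4 and 12.2. These intensities lie at the filter, and the call ended with any of the 9 arrays left out (adjusted p 0.050 to 0.17). A second RSPO1 probe set, with a mean of 17.68 just below the filter, was not tested. It showed no fall, with means of 14.1 in control and 19.63 at 24 h, and its groups overlapped. Of 5 tested receptors and co-receptors limma called 0 at either time, beside 0.489% (5 h) and 8.7% (24 h) of all probe sets. Before adjustment, p lay under 0.05 for FZD1 at 24 h and for 0 receptors at 5 h. Of all 18013 probe sets, 2132 were higher and 2117 lower by that measure at 24 h. FZD1 stood at -0.47 ± 0.17 at 24 h; its adjusted p was 0.14, or 0.037 once replicate numbers were blocked. The R-spondin receptor LGR4 stood at -0.091 ± 0.17 and the non-canonical receptor ROR2 at -0.14 ± 0.19 (adjusted p = 0.84 and 0.75).

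The other secreted antagonists showed no call against control. Of 19 listed secreted and membrane inhibitors 11 had a probe set and 7 passed the filter. Limma called 0 of the 7 at 5 h or 24 h, with the block or without. Before adjustment, p also lay under 0.05 for 0 of them. Over all probe sets 0.489% were called at 5 h and 8.7% at 24 h (5.87% and 35.9% with the block). At 24 h, 2 of the 7 were higher without overlap, APCDD1 and FRZB (adjusted p = 0.26 and 0.42), beside 13.9% of all probe sets. The frizzled-related proteins SFRP4 and SFRP1 stood at -0.077 ± 0.40 and -0.086 ± 0.39 at 5 h, and at 0.63 ± 0.40 and 0.22 ± 0.39 at 24 h. DKKL1, a Dickkopf-like protein, stood at -0.16 ± 0.32 and -0.0011 ± 0.32. SFRP5, SOST, SOSTDC1 and RNF43 were below the filter. From 5 h to 24 h SFRP1 and SFRP4 rose by 0.30 and 0.70, called with the block only (adjusted p with the block 0.041 and 0.047). In the main fit, where the SE was 0.39 and 0.40, adjusted p was 0.69 and 0.30. The block thus called 28.6% of the inhibitors in this step, beside 43.9% of all probe sets. The groups of both genes overlapped. SFRP4 was at 299.9, 343.7 and 402.4 at 5 h and at 480.5, 343.7 and 1132.1 at 24 h, unchanged in replicate number 2.

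Among the relay proteins and the destruction complex, limma called 0 of 3 and 0 of 13 tested genes against control at either time. The share of all probe sets called was 0.489% at 5 h and 8.7% at 24 h. Before adjustment, p lay under 0.05 for PPP2CA alone of these list genes, at 5 h. With the block 3 of these genes were called at 5 h (CXXC5 lower, FBXW11 and GSK3B higher) and 5 at 24 h (APC and CXXC5 lower, CSNK1E, CSNK1G1 and DVL1 higher). At 5 h that was 33.3% of the relay genes and 15.4% of the complex, beside 5.87% of all probe sets. At 24 h it was 66.7% and 23.1%, beside 35.9%. The probe sets of the kinase CSNK1A1 disagreed: its brightest stood at -0.084 ± 0.12 at 24 h (adjusted p = 0.78), while a dimmer one was called lower there (-0.69 ± 0.14, adjusted p = 0.023). Another dimmer one was called higher from 5 h to 24 h (1.14 ± 0.27, adjusted p = 0.027). That last one was near the bottom of the scale, at 6.6, 1.2 and 15.1 at 5 h and 25.6, 30.4 and 50.8 at 24 h. CXXC5, a binder of Dishevelled, stood at -0.40 ± 0.31 at 5 h and -0.47 ± 0.31 at 24 h (adjusted p = 1.0 and 0.44, and 0.029 and 0.0028 with the block). DVL1 stood at 0.38 ± 0.20 at 24 h (adjusted p = 0.31, and 0.044 with the block), and DVL2 at 0.23 ± 0.26. The kinase GSK3A stood at 0.021 ± 0.20 at 24 h and the phosphatase subunit PPP2R1A at -0.11 ± 1.01; the arrays numbered 3 had PPP2R1A intensities of 201.5 to 270.8, and the other 6 arrays 1241.5 to 1781.5. PPP2CA, the catalytic subunit of that phosphatase, fell from 5 h to 24 h by 0.50 ± 0.13 (adjusted p = 0.041), from 2457.3, 2599.8 and 2468.8 to 1656.9, 1991.6 and 1684.5. Its call ended without control replicate 3, without 5 h replicate 1, 2 or 3, or without 24 h replicate 1 or 3 (highest adjusted p 0.14). The kinase GSK3B, chosen after its values were seen, stood at 0.84 ± 0.55 at 5 h (adjusted p = 0.99, and 0.0035 with the block).

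The nuclear partners of β-catenin held 4 of the 10 list genes called at 24 h, of 20 tested (20.0%, beside 8.7% of all probe sets). RUVBL1, an ATPase of chromatin remodelling complexes, fell by 0.82 ± 0.15 (adjusted p = 0.017), from 1430.1, 1581.8 and 1447.9 in control to 988.8, 724.8 and 805.5. The chromatin remodeller SMARCA4 fell by 0.63 ± 0.14 (adjusted p = 0.032; 3 dimmer probe sets at -0.55, -0.64 and -0.59 were not called) and the histone deacetylase HDAC1 by 0.48 ± 0.098 (adjusted p = 0.023). TBL1X, a corepressor subunit that also binds β-catenin, rose by 0.91 ± 0.16 (adjusted p = 0.014), from 516.7, 610.4 and 661.4 to 1166.2, 948.2 and 1297.5. A dimmer TBL1X probe set stood at 0.13 ± 0.26 (adjusted p = 0.86). The corepressors TLE5 and CTBP2 stood at -0.0066 ± 0.16 and -0.25 ± 0.16 (adjusted p = 0.99 and 0.43). With the block 1 nuclear partner was called higher at 5 h (5.0%, beside 5.87% of all probe sets). It was the acetyltransferase CREBBP (0.75 ± 0.17, adjusted p = 0.011, and 0.12 without the block). At 24 h the block called 1 higher and 5 lower (30.0%, beside 35.9% of all probe sets). The block added RUVBL2 (-0.62 ± 0.34, adjusted p = 0.014, and 0.33 without it) and TLE1 (-0.54 ± 0.25, adjusted p = 0.020, and 0.24 without it). Dimmer TLE1 probe sets were not called, at -0.13 ± 0.28 and 0.12 ± 0.69 (adjusted p with the block 0.49 and 0.55). These proteins act in many other complexes besides those of Wnt signalling.

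At the cell junction, where cadherins hold β-catenin, 1 of 8 tested genes was called at 24 h (12.5%, beside 8.7% of all probe sets). CTNNA1, the α-catenin that links β-catenin to actin, rose by 0.63 ± 0.10 (adjusted p = 0.011), from 2213.5, 2121.1 and 2188.0 in control to 3641.5, 3267.4 and 3236.3. At 5 h its arrays overlapped control, at -0.054 ± 0.10 (adjusted p = 1.0). With the block 3 junction genes were called at 24 h, all higher (37.5%, beside 35.9% of all probe sets in either direction). They were CTNNA1 and also JUP (plakoglobin, 0.71 ± 0.47, adjusted p = 0.0048, and 0.43 without the block) and CDH3 (0.48 ± 0.27, adjusted p = 0.019, and 0.35 without the block). CDH11 stood at 0.16 ± 0.12 and CDH2 at -0.24 ± 0.23 at 24 h (adjusted p = 0.48 and 0.63). A dimmer CDH11 probe set stood at 0.30 ± 0.13 at 24 h, without overlap with control (adjusted p = 0.19, and 0.014 with the block).

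In the planar polarity and calcium branch, which runs without β-catenin, 2 of 15 tested genes rose at 24 h (13.3%, beside 8.7% of all probe sets in either direction). CAMK2D, a subunit of calcium/calmodulin-dependent kinase II, rose by 1.10 ± 0.13 (adjusted p = 0.0044), from 828.3, 674.3 and 751.4 to 1641.5, 1508.7 and 1732.7. INVS (inversin), which binds Dishevelled, rose by 0.72 ± 0.17 (adjusted p = 0.036). With the block 3 were called higher and 1 lower at 24 h (26.7%, beside 35.9% of all probe sets). The block added the calcium-responsive factor NFATC4 (0.38 ± 0.19, adjusted p = 0.026, and 0.28 without it) and the kinase MAPK8 (-0.81 ± 0.23, adjusted p = 0.0010, and 0.066 without it). The small GTPases RAC1 and RHOA stood at -0.085 ± 0.14 and -0.10 ± 0.11 at 24 h, and the kinase ROCK2 at -0.13 ± 0.22 (adjusted p = 0.82, 0.67 and 0.82). A dimmer RAC1 probe set stood lower, at -0.51 ± 0.21 at 24 h (adjusted p = 0.17, and 0.0058 with the block).

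Of 14 tested targets of β-catenin 1 fell at 5 h (7.14%, beside 0.489% of all probe sets). At 24 h 1 rose and 1 fell (14.3%, beside 8.7%). With the block 1 was higher and 3 lower at 5 h (28.6%, beside 5.87% of all probe sets), and 2 were higher and 4 lower at 24 h (42.9%, beside 35.9%). The 14 had median log2 differences of -0.30 and 0.068. MYC fell by 2.16 ± 0.17 at 5 h (adjusted p = 0.0025), from 734.0, 685.0 and 910.6 in control to 169.8, 143.4 and 167.1. It was still below control at 24 h, at 290.0, 229.6 and 226.9 (fell by 1.58 ± 0.17, adjusted p = 0.0037). The homeobox gene MSX1 rose by 0.56 ± 0.12 at 24 h (adjusted p = 0.024), and a dimmer probe set stood at 0.62 ± 0.37 (adjusted p = 0.38). CCN5, ID2 and CD44 were not called; they stood at 0.70 ± 0.41, 0.49 ± 0.23 and -0.011 ± 0.10 at 24 h. ID2 had adjusted p = 0.24, and 0.039 with the block, and at 5 h stood at 0.71 ± 0.23 (adjusted p = 0.38, and 0.034 with the block). A dimmer ID2 probe set stood at -0.039 ± 0.28 at 5 h (adjusted p = 0.90 with the block). At 24 h it stood at 0.82 ± 0.28 (adjusted p = 0.11, and 0.00072 with the block). Of the targets that most directly report the pathway, chosen here after their values were seen, AXIN2 stood at -0.26 ± 0.36 at 5 h and -0.46 ± 0.36 at 24 h (adjusted p = 1.0 and 0.53) and LEF1 at -0.14 ± 0.20 and 0.19 ± 0.20 (adjusted p = 1.0 and 0.68). CCND1 stood at -1.19 ± 0.54 and -1.46 ± 0.54 (adjusted p = 0.73 and 0.14, and 0.016 and 0.0012 with the block). The AP-1 subunit FOSL1 stood at -1.04 ± 0.81 and -0.82 ± 0.81 (adjusted p = 1.0 and 0.64, and 0.0080 and 0.0052 with the block). BMP4 stood at -0.67 ± 0.34 at 24 h (adjusted p = 0.28, and 0.018 with the block).

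The 10 list calls at 24 h were sensitive to single arrays. There were 2 calls without control replicate 2, 4 without control replicate 3, and 3, 4 and 5 without 24 h replicate 1, 2 and 3; there were 9 without all 3 arrays numbered 3. CAMK2D and MYC were called in all 9 fits that left out 1 array (highest adjusted p 0.029 and 0.020). The highest adjusted p over those fits was 0.055 for CTNNA1, 0.065 for TBL1X, 0.074 for RUVBL1, 0.096 for HDAC1, 0.099 for MSX1, 0.12 for SMARCA4 and 0.13 for INVS. The sign of each was kept in the 19 settings run (18 for RSPO1).

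From 5 h to 24 h, 5 of the 86 list genes rose and 5 fell (11.6%), beside 14.3% of all probe sets, of which 1457 rose and 1113 fell (8.09% and 6.18%). With each array centred on its median, 3 list genes rose and 5 fell, and over all probe sets 814 rose and 1614 fell; that centring moved the median of all probe sets by -0.15. With the block 20 list genes rose and 16 fell, beside 24.3% and 19.6% of all probe sets (43.9% together). Of the 10, 9 were also called at 24 h against control: CAMK2D, CTNNA1, INVS, MSX1 and TBL1X rose in both, and HDAC1, RSPO1, RUVBL1 and SMARCA4 fell in both. The comparisons share the 24 h arrays. None of these 9 was called at 5 h in the same test (adjusted p = 1.0 for each), while DKK1 had means of 464.3 at 5 h and 436 at 24 h.

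The genes most like DKK1 over the 9 arrays were sought by Pearson correlation among 574 genes whose group means spanned at least 1 on the log2 scale. The highest correlations were 0.938 for AMIGO2, a cell adhesion protein, 0.92 for CKM, the muscle creatine kinase, 0.912 for the kinase DYRK3, 0.908 for the heat shock protein HSPA1A and 0.889 for the stress transcription factor ATF3. They were 0.885 for NUPR1, 0.875 for the ubiquitin ligase RNF19B and 0.871 for SYBU. The lowest were -0.981 for CDC42EP3, an effector of the GTPase CDC42, -0.981 for PCTP, a phosphatidylcholine transfer protein, -0.974 for the cap-binding protein EIF4E2 and -0.973 for TLNRD1. These are descriptions of arrays that share groups and cultures, selected as extremes, and no p is given. With each value taken relative to the mean of its replicate number, 5 of the 8 most like genes stayed among the top 8, and by Spearman's correlation 4 did.

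Among the 5 h arrays, the one numbered 2 lay nearest to control for DKK1 and also for several of these genes. AMIGO2 had a mean intensity of 225.4 ± 44.9 in control, 723.9 ± 306 at 5 h and 520.5 ± 46.3 at 24 h. CKM was at 663.7, 582.5 and 678.1 in control, 3002.0, 813.7 and 2931.6 at 5 h and 3280.2, 1933.1 and 2741.8 at 24 h. CDC42EP3 went the other way, from 2530 ± 289 in control to 1166 ± 378 at 5 h and 1206 ± 109 at 24 h. HSPA1A is uncertain, since near-identical relatives may share its probes. The 7 measured skeletal muscle markers, CKM included, summed to 1101 to 1330 in control and 1357 to 3676 at 5 h. At 24 h the sum ran from 2251 to 3588. The rise in the sum followed CKM, which was called higher at 24 h (1.99, adjusted p = 0.031). MYL1 fell at 24 h (-1.26, adjusted p = 0.016), and MYH1 was below the filter. The rest were not called at 24 h: ACTA1 stood at -0.60, TNNT3 at -0.16, MYOG at 0.21 and DES at 0.26 (adjusted p = 0.16, 0.80, 0.67 and 0.58). The part of muscle cells in the DKK1 likeness was not tested.

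**Figure D3:**
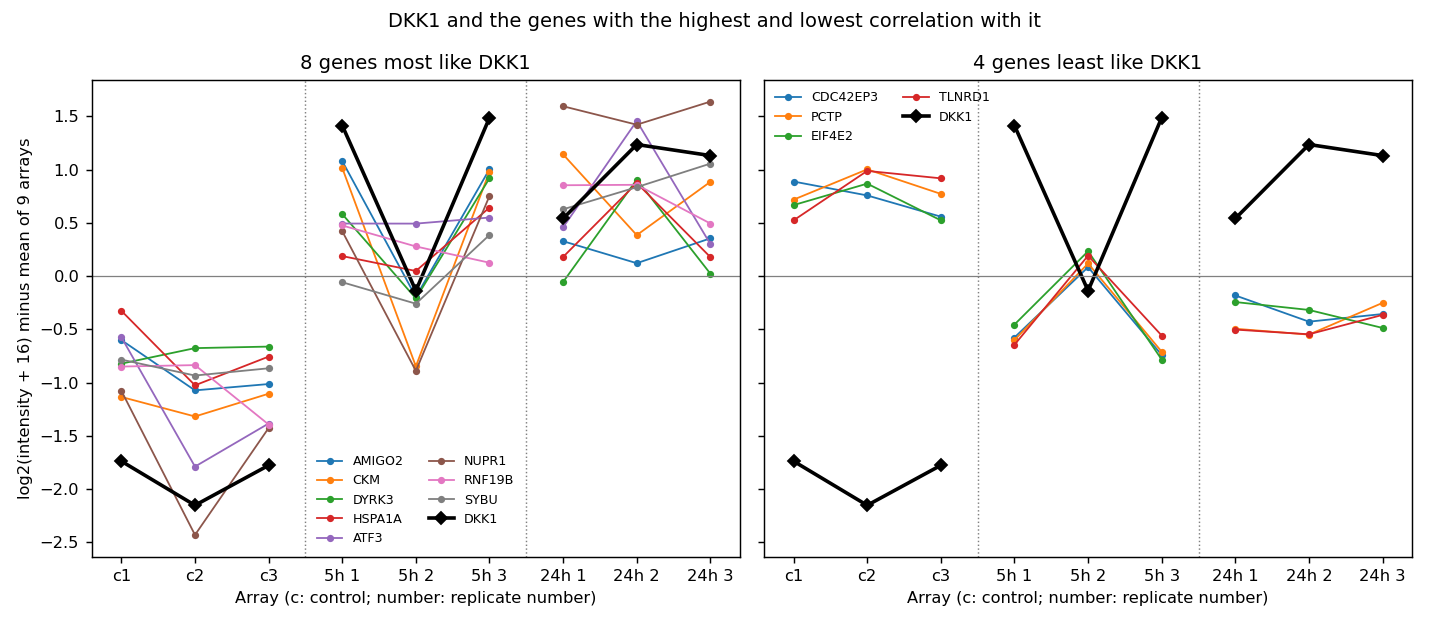
log2(intensity + 16) minus the mean of the 9 arrays (y) for DKK1 (black diamonds) and the 8 genes with the highest (left) and the 4 with the lowest (right) correlation with it, on each array (x); lines join the arrays of a group only. Among the salt arrays, the 5 h array numbered 2 lies closest to control for DKK1 and for all 4 genes on the right. On the left the same holds for all genes but ATF3 and RNF19B.

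FZD4 was most like SCHIP1 (0.958), the cyclin CCNE2 (0.948), the cytokine IL6 (0.943) and the phosphatase regulator PPP1R7 (0.94), all of them lower at 24 h than in control. PPP1R7, for example, had mean intensities of 1011 ± 38.7, 885.3 ± 35.3 and 456.9 ± 82.1 in control, at 5 h and at 24 h. For the other members no span between groups was asked. Among 5142 genes, DKK3 was most like ANXA4 (0.961), NOL3 (0.958) and SIL1 (0.957), and CTNNB1 was most like ERBIN (0.966), YWHAZ (0.962) and C1GALT1C1 (0.958). SFRP2, near 0, was most like DMAC2L (0.965), GNG10 (0.952) and RTN3 (0.951). The groups of these 9 genes overlapped in all 3 comparisons, and the correlations run over cultures within groups as much as over groups.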

How the data were processed

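Gene expression was measured on 9 one-colour arrays (3 control, 3 salt 5 h, 3 salt 24 h). The authors deposited 1 linear intensity per probe set and array. Per the submitters' processing notes, PLIER and Affymetrix Expression Console were used; their versions, their settings and any normalization between arrays are not stated in the labels or files used. No further normalization was applied. Gene symbols came from the platform annotation: of 24016 probe sets outside controls, 13292 carry 1 symbol, 86 several and 10638 are unlisted, and 13263 matched a current bovine gene table (ARS-UCD2.0), which changed 0 symbols. Coordinates and sequences were not used here.

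Intensities were taken as log2(value + 16), 18013 probe sets passed the filter, and limma 3.58.1 (R 4.3.3) estimated the 3 group means from the 9 arrays together, with an intensity trend in eBayes. A call is a Benjamini-Hochberg adjusted p under 0.05, and an adjusted p is from this fit unless the replicate block or a left-out array is named beside it. The SE of a log2 difference is always from this fit, also beside an adjusted p with the block. The number of arrays limits the precision. The fit was run on simulated data with independent arrays and no shared replicate effect. That run does not cover the correlation between same-number arrays seen here. The labels number the replicates 1 to 3 in each group without naming a shared animal; same-number arrays correlated at 0.565 or more (other pairs -0.78 to 0.544), so a replicate block was fitted as an alternative.

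The members and lists were chosen with earlier results of these data known. Named were all members, list genes called in any comparison, the 3 brightest of each role list, and for DKK1 the 8 most and 4 least correlated genes with a mean at or above the median (FZD4: 4; others: 3). Others, those added by the block among them, were chosen after their values were seen.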

Additional observations from a re-analysis of the deposited data

Results flagged for a closer look

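Levels differed between 5 h and 24 h in salt for 10 of the 86 tested Wnt genes, by limma's test of 24 h minus 5 h. No control was matched to either time, so time in culture and length of salt cannot be told apart. On the log2 scale the 24 h level exceeded the 5 h level by 0.93 for CAMK2D, 0.76 for TBL1X, 0.69 for CTNNA1, 0.62 for INVS and 0.60 for MSX1. The 24 h level lay below the 5 h level, with differences of -0.87 for RUVBL1, -0.80 for SMARCA4, -0.72 for RSPO1, -0.50 for PPP2CA and -0.36 for HDAC1. The share, 11.6%, is below the 14.3% of all tested probe sets called in that comparison. With 1 array left out at a time, the calls of CAMK2D, CTNNA1, RUVBL1 and SMARCA4 in this comparison held in all 9 fits. Those of MSX1 and RSPO1 held in 7 (highest adjusted p 0.060 and 0.063), that of TBL1X in 5 (0.072), that of PPP2CA in 3 (0.14), that of INVS in 2 (0.14) and that of HDAC1 in 1 (0.11).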

How the results depend on the processing

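DKK1 kept its log2 difference from control within 1 SD of the value given, except 2.14 at 5 h and 2.17 at 24 h with 64 added before the logarithm; with an array left out it ranged from 2.53 to 3.34 and from 2.73 to 3.07. Counts of list genes and of all probe sets called (5 h, 24 h, and 24 h minus 5 h) were 1 and 88, 10 and 1567, and 10 and 2570. With the replicate block, where the replicate numbers pair the arrays, they were 8 and 1057, 26 and 6471, and 36 and 7910, and the 1, 10 and 10 list calls were all kept. Fitted to the 6 arrays compared, 13 probe sets were called at 5 h, and 6 list genes and 787 probe sets at 24 h. With median centring 58 were called at 5 h (35 higher and 23 lower, beside 43 and 45) and 504 higher and 828 lower at 24 h. With the probe sets of a gene averaged, 6 list genes were called at 24 h and 6 in 24 h minus 5 h. With an array left out, list calls ranged from 1 to 2, 2 to 10 and 4 to 10, and all calls from 15 to 126, 306 to 1545 and 858 to 2441. Without the arrays numbered 3, an alternative chosen after seeing the data, list calls were 1, 9 and 12. The sign of DKK1 from 5 h to 24 h (-0.48 to 0.33 with an array left out) and of CTNNB1 at 5 h was not settled. Probe sets near 0 (SFRP2, the dimmer FZD4 and DKK1 in control) limit what can be said of dim genes.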
